A study of Mus musculus with 15 samples.

Results

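The 30 genes described here encode enzymes and carriers of pyruvate metabolism and the tricarboxylic acid (TCA) cycle. They were taken by gene symbol from a table of 37991 gene identifiers, and all 30 passed the filter on low counts in every comparison. RNA sequencing of polyadenylated RNA gave 15 libraries of mouse adipose tissue in 4 groups, all on the C57BL/6 background. The groups were inguinal white adipose tissue at postnatal day 24 from IL-33-/- mice (3 libraries, numbered 2 to 4) and from wild-type mice (4 libraries), and brown adipose tissue at postnatal day 0.5 from mice labelled IL-33-/- (4 libraries) and from wild-type mice (4 libraries). IL-33 is a cytokine released by damaged or stressed cells that acts through the receptor ST2. The sources used here do not state which part of Il33 was deleted. Nor do the labels say whether each library came from a different animal, so the spread behind every p-value may be technical.

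Pyruvate, made from glucose or lactate, enters mitochondria through a 2-subunit carrier. There the pyruvate dehydrogenase complex turns it into acetyl-CoA, or pyruvate carboxylase turns it into oxaloacetate. Citrate synthase joins these products, and the cycle releases carbon dioxide while passing electrons to the respiratory chain. In adipocytes the cycle also supplies citrate, which is exported to the cytosol for fatty acid synthesis, and in brown adipose tissue it feeds heat production.

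Total counts ran from 26059635 to 53923009 per library. Levels are TMM-scaled CPM, the counts of a gene relative to its library's total, and each log2 change carries its standard error (SE). A gene was called where the Benjamini-Hochberg adjusted p of edgeR's quasi-likelihood test over all genes tested was below 0.05. Il33 itself was 0.0791 to 0.471 CPM in knockout inguinal libraries and 3.45 to 4.61 CPM in wild-type inguinal libraries (log2 change -3.73, SE 0.36, edgeR adjusted p = 1.25e-05). In brown tissue it was 0.413 to 1.75 CPM in labelled knockout libraries and 1.73 to 3.21 CPM in wild-type libraries (log2 change -1.08, SE 0.44, edgeR adjusted p = 0.229), so Il33 did not settle the brown labels. Ucp1, the uncoupling protein that marks brown adipocytes, was 1557 to 3235 CPM in labelled knockout brown libraries and 2480 to 6777 CPM in wild-type brown libraries. It was also present in inguinal tissue, at 1620 to 2098 CPM in knockout libraries and 601 to 1049 CPM in wild-type libraries.

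Brown labelled knockout library 1 stood apart. Of the 30 genes, it had the highest level of all 8 brown libraries for 13 and the lowest for 5. Its sum of 9 brown adipocyte markers was 4217 CPM, against 5593 to 7315 CPM in the other labelled knockout libraries. Results in brown tissue are therefore given with and without it. The wild-type brown libraries also differed among themselves. Their chi-square per degree of freedom, larger where libraries differ more, was 23.9 between libraries 1 and 2 and 18.2 between 3 and 4. Between these pairs it was 70.7 to 91.5. Ucp1 was 2480 and 3246 CPM in wild-type brown libraries 1 and 2, against 6380 and 6777 CPM in libraries 3 and 4.

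The comparison of knockout with wild-type inguinal tissue asks how absence of IL-33 changed this depot. Of the 30 genes, 24 were higher and 1 was lower in knockout inguinal tissue. Of all 15710 genes tested, 15.3% were higher and 13.3% lower. The median log2 change was 0.56 over the 30 genes, beside -0.02 over all genes tested. Summed over the 30 genes, the level was 23895, 23419 and 19557 CPM in knockout libraries, against 15966, 15236, 15185 and 14296 CPM in wild-type libraries. The groups did not overlap, and knockout library 4 was the nearest to wild type. In bulk tissue, a change in the share of a cell type and a change in RNA per cell cannot be told apart.

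**Figure D1:**
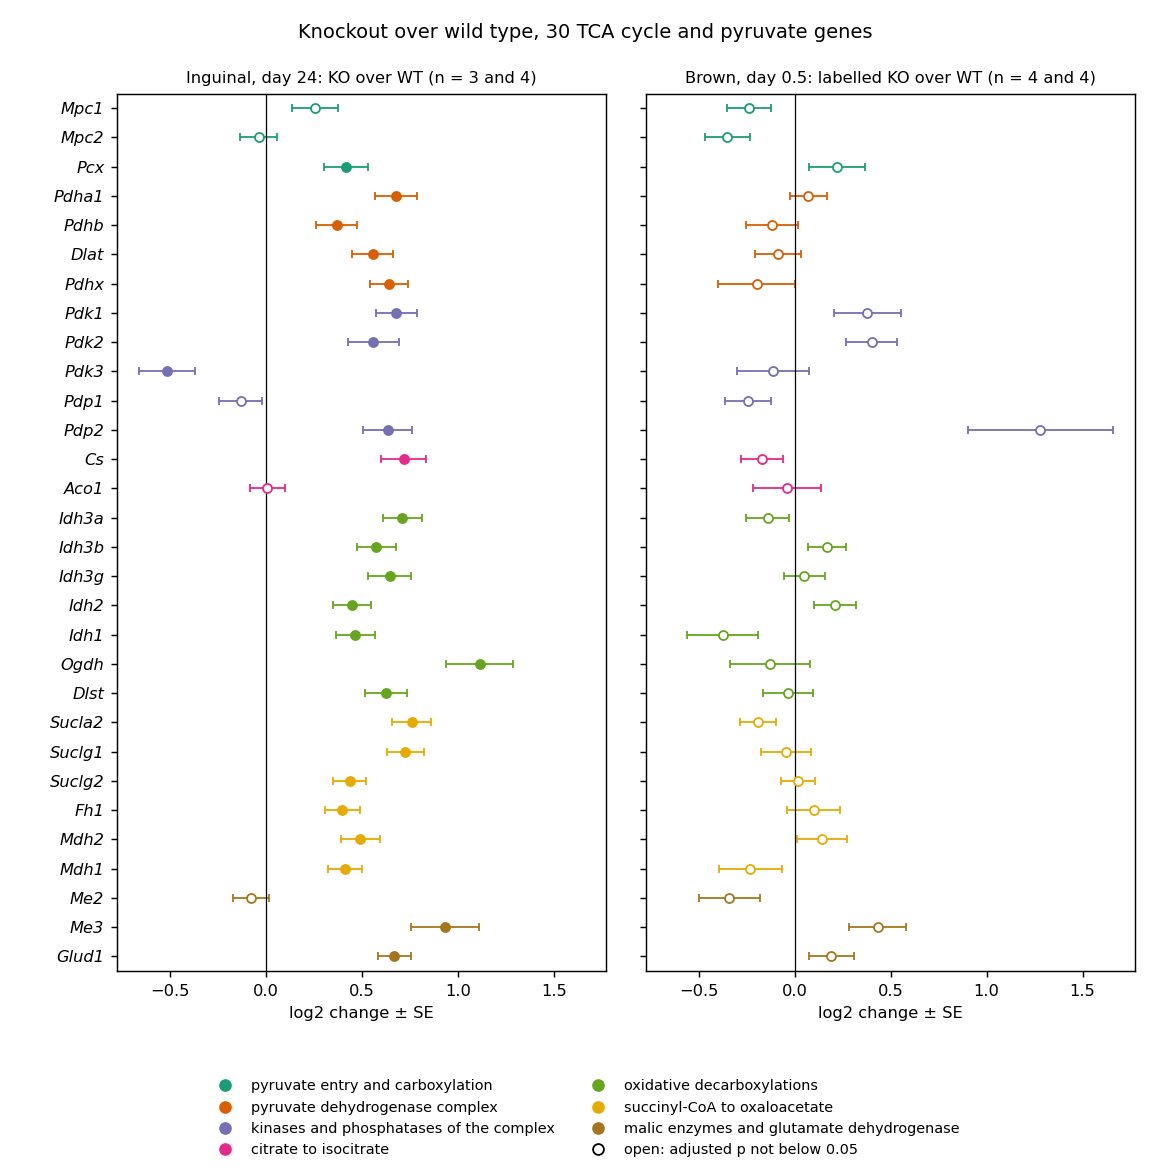
Log2 change with its SE for each of the 30 genes, knockout over wild type, in inguinal tissue (left, n = 3 and 4) and brown tissue (right, n = 4 and 4). Colours mark roles and filled points passed the test; in inguinal tissue 24 genes are higher and Pdk3 is lower, and in brown tissue all points are open.

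The enzymes that bring pyruvate into the mitochondrion and carboxylate it moved unevenly. Pcx, pyruvate carboxylase, which refills the cycle with oxaloacetate, had 2619, 2287 and 2108 CPM in knockout inguinal libraries, against 2011, 1737, 1788 and 1540 CPM in wild-type libraries. Each knockout library was above every wild-type library (log2 change 0.42, SE 0.12, edgeR adjusted p = 0.0153), but the call was lost without knockout library 2 and in a fit of all 4 groups. Mpc1 and Mpc2 are the subunits of the mitochondrial pyruvate carrier. Mpc1 had 224, 341 and 259 CPM in knockout libraries, against 234, 246, 221 and 228 CPM in wild-type libraries. The groups overlapped, and knockout library 3 was the highest (log2 difference 0.25, SE 0.12, edgeR adjusted p = 0.129). Without knockout library 2 Mpc1 passed (log2 change 0.38, edgeR adjusted p = 0.018). Mpc2 averaged 357 ± 40.4 CPM in knockout libraries and 369 ± 18.6 CPM in wild-type libraries (SD, n = 3 and 4, log2 difference -0.04).

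All 4 listed subunits of the pyruvate dehydrogenase complex rose. Pdha1, the alpha subunit of the decarboxylating E1 component, had 1490, 1592 and 1182 CPM in knockout inguinal libraries, against 936, 908, 900 and 844 CPM in wild-type libraries. The groups were apart (log2 change 0.68, SE 0.11, edgeR adjusted p = 0.000554). Its partner Pdhb, the beta subunit of E1, averaged 1230 ± 154 CPM in knockout libraries and 961 ± 57.2 CPM in wild-type libraries (SD, n = 3 and 4). That log2 change was 0.37 (SE 0.11, edgeR adjusted p = 0.0189), and its call was lost in a fit of all 4 groups and without knockout library 2, knockout library 3 or wild-type library 3. Dlat, the acetyltransferase core, rose by 0.56 (SE 0.11), and Pdhx, which anchors the E3 component to that core, rose by 0.64 (SE 0.10). Neither of these 2 calls was lost under any alternative run.

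Kinases switch the complex off and phosphatases switch it back on, and both kinds held genes that rose. The kinase gene Pdk1 had 184, 212 and 175 CPM in knockout inguinal libraries, against 134, 119, 126 and 101 CPM in wild-type libraries (log2 change 0.68, SE 0.11, edgeR adjusted p = 0.000416). Pdk2 had 319, 240 and 218 CPM in knockout libraries, against 191, 164, 197 and 157 CPM in wild-type libraries (log2 change 0.56, SE 0.13, edgeR adjusted p = 0.00647). For both kinases the groups were apart. Pdk3, another kinase isoform, was the only gene of the 30 called lower. It had 4.35, 4.27 and 4.61 CPM in knockout libraries, against 6.28, 6.16, 7.25 and 5.88 CPM in wild-type libraries (log2 change -0.52, SE 0.14, edgeR adjusted p = 0.0153). The groups did not overlap, but the call was lost without knockout library 3 and in a fit of all 4 groups. Of the phosphatases, Pdp2 had 55.8, 52.6 and 38.7 CPM in knockout libraries, against 34.3, 32.1, 34.0 and 27.3 CPM in wild-type libraries (log2 change 0.63, SE 0.13, edgeR adjusted p = 0.00244), a call lost in a fit of all 4 groups. Pdp1 averaged 12.0 ± 0.865 CPM in knockout libraries and 13.3 ± 0.814 CPM in wild-type libraries (SD, n = 3 and 4, log2 difference -0.13, edgeR adjusted p = 0.408).

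Levels per kilobase of exon divide by all annotated exons of a gene, whether or not the tissue uses them, so they compare genes only roughly. On this scale Pdk2 had the highest level of the 3 listed kinases in every group. It averaged 81.9 ± 16.8 CPM per kb in knockout and 56.1 ± 6.20 CPM per kb in wild-type inguinal tissue (SD, n = 3 and 4). The level of Pdk1 was 24.5 ± 2.50 CPM per kb in knockout and 15.4 ± 1.78 CPM per kb in wild-type tissue, and that of Pdk3 was 1.72 ± 0.0704 and 2.50 ± 0.231 CPM per kb in the same groups. The kinase called lower thus had the lowest level of the 3. Pdk4, a kinase gene outside the list, was named after its values were seen and has no level per kilobase here. It averaged 674 ± 152 CPM in knockout and 791 ± 200 CPM in wild-type inguinal libraries (SD, n = 3 and 4). The groups overlapped (log2 difference -0.22, SE 0.19, edgeR adjusted p = 0.439). In brown tissue Pdk4 had 1243, 6580, 4648 and 6068 CPM in labelled knockout libraries, against 2431, 1784, 4274 and 3453 CPM in wild-type libraries. The brown groups overlapped (log2 difference 0.63, SE 0.46, edgeR adjusted p = 0.503), and labelled knockout library 1 was the lowest. The means of Pdk4 in labelled knockout and wild-type brown libraries were 4635 and 2985 CPM, against 443 and 334 CPM for Pdk2.

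Of the genes for the formation of citrate and isocitrate, Cs was called higher and Aco1 was not called. Cs, citrate synthase, had 2604, 2437 and 1880 CPM in knockout inguinal libraries, against 1483, 1415, 1414 and 1359 CPM in wild-type libraries. All knockout libraries were above all wild-type libraries (log2 change 0.72, SE 0.12, edgeR adjusted p = 0.000542). Aco1 encodes the cytosolic aconitase, which doubles as the iron-responsive protein IRP1. It had 631, 622 and 561 CPM in knockout libraries, against 644, 576, 596 and 615 CPM in wild-type libraries. The groups overlapped (log2 difference 0.01, SE 0.09, edgeR adjusted p = 0.973).

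The oxidative decarboxylations showed the largest single change. Ogdh, the E1 component of the 2-oxoglutarate dehydrogenase complex, had 2348, 1971 and 1332 CPM in knockout inguinal libraries, against 963, 924, 933 and 701 CPM in wild-type libraries. The knockout libraries differed widely among themselves but all were above wild type (2.16-fold, log2 change 1.11, SE 0.17, edgeR adjusted p = 0.00075). Dlst, the succinyltransferase core of that complex, rose by 0.62 (SE 0.11, edgeR adjusted p = 0.00086). The 3 genes of the NAD-dependent isocitrate dehydrogenase rose together. Idh3a, its catalytic subunit, had 1327, 1530 and 1205 CPM in knockout libraries, against 846, 837, 843 and 814 CPM in wild-type libraries (log2 change 0.71, SE 0.10, edgeR adjusted p = 0.000188). Idh3b and Idh3g, the other two subunits, rose by 0.57 (SE 0.10) and 0.64 (SE 0.11) on the log2 scale. The NADP-dependent isoenzymes, Idh2 in mitochondria and Idh1 in the cytosol, rose by 0.45 (SE 0.10) and 0.47 (SE 0.10), and the Idh1 call was lost in a fit of all 4 groups.

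The steps from succinyl-CoA to oxaloacetate rose in all 6 listed genes. Sucla2, the beta subunit of the ATP-forming succinyl-CoA synthetase, had 1096, 1230 and 1020 CPM in knockout inguinal libraries, against 687, 701, 686 and 587 CPM in wild-type libraries (log2 change 0.76, SE 0.10, edgeR adjusted p = 0.000134). Suclg1, the alpha subunit shared by both forms of that enzyme, had 701, 672 and 595 CPM in knockout libraries, against 400, 416, 416 and 369 CPM in wild-type libraries (log2 change 0.73, SE 0.10, edgeR adjusted p = 0.000112). Neither gene had overlapping groups. Suclg2, the beta subunit of the GTP-forming enzyme, averaged 163 ± 11.3 CPM in knockout libraries and 122 ± 7.11 CPM in wild-type libraries (SD, n = 3 and 4, log2 change 0.44, SE 0.09, edgeR adjusted p = 0.00228). Fh1, fumarase, rose by 0.40 (SE 0.09). Mdh2, the mitochondrial malate dehydrogenase, rose by 0.49 (SE 0.10), and Mdh1, its cytosolic counterpart, by 0.41 (SE 0.09). The calls of Fh1 and Mdh1 were lost in a fit of all 4 groups.

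Enzymes at the edge of the cycle were split. Me3, the NADP-dependent mitochondrial malic enzyme, had 25.1, 23.9 and 17.1 CPM in knockout inguinal libraries, against 13.4, 13.3, 11.7 and 8.29 CPM in wild-type libraries. The groups were apart (log2 change 0.93, SE 0.18, edgeR adjusted p = 0.00194). Me2, its NAD-dependent relative, had 21.3, 22.8 and 22.7 CPM in knockout libraries, against 24.4, 22.8, 22.3 and 25.3 CPM in wild-type libraries, and the groups overlapped (log2 difference -0.08, SE 0.09, edgeR adjusted p = 0.566). Glud1, glutamate dehydrogenase, which links glutamate to 2-oxoglutarate, had 491, 552 and 553 CPM in knockout libraries, against 344, 353, 323 and 329 CPM in wild-type libraries. No library of Glud1 overlapped the other group (log2 change 0.67, SE 0.09, edgeR adjusted p = 0.000109).

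**Figure D2:**
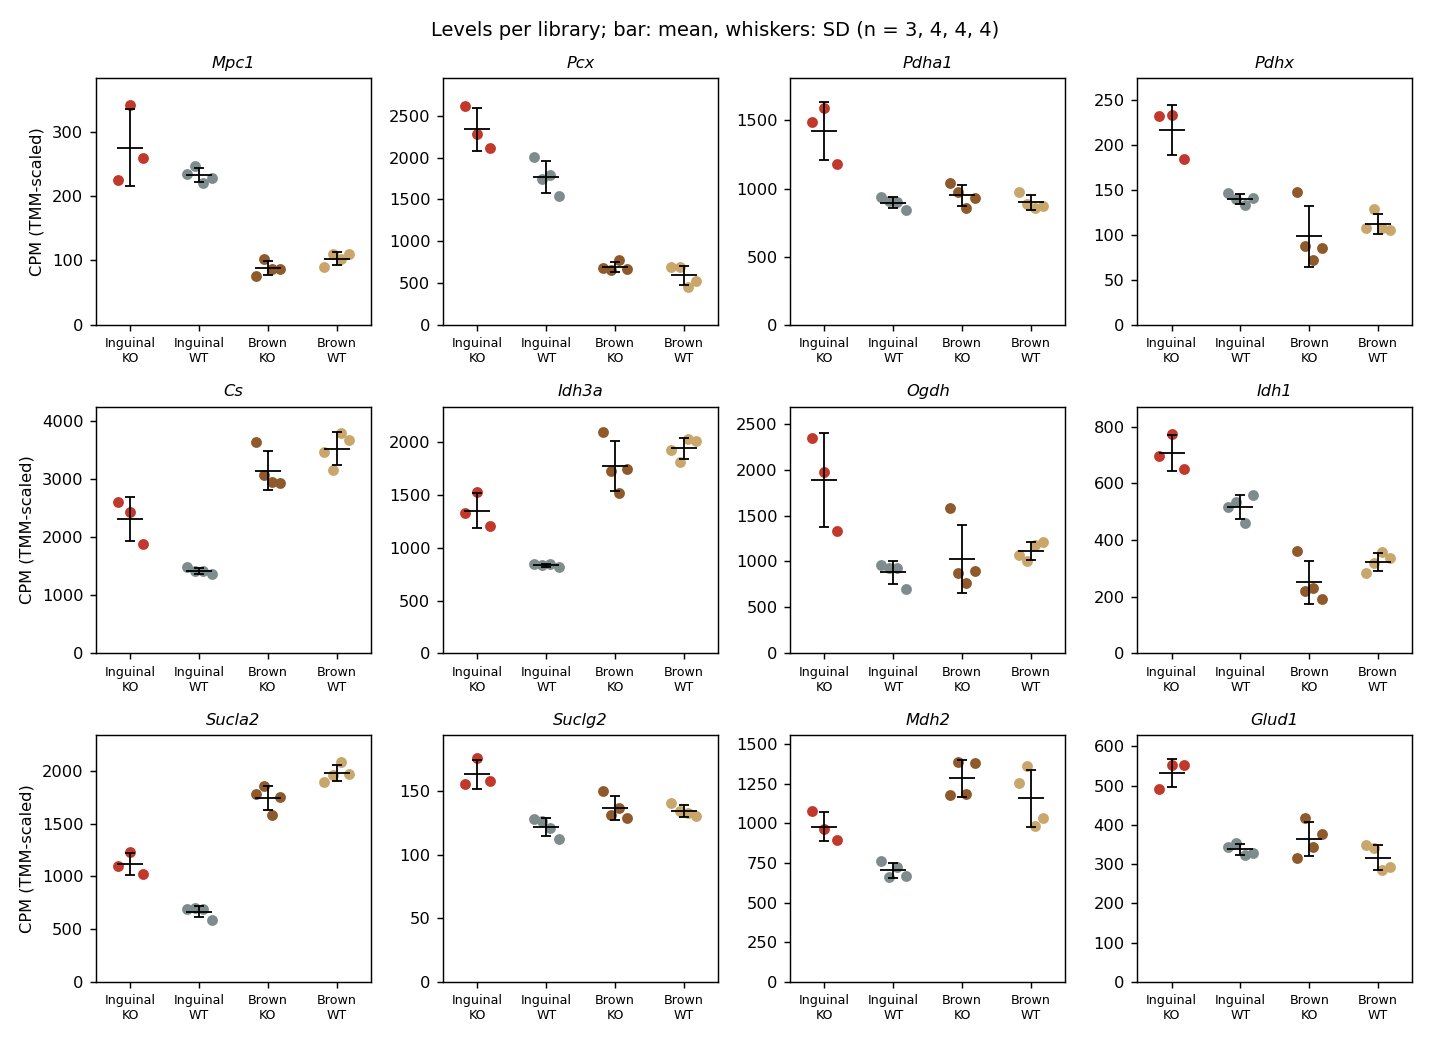
CPM of 12 of the genes in every library, with the mean as a bar and the SD as whiskers (n = 3, 4, 4 and 4, axes from 0). Idh3a and Sucla2 lie above wild type in all 3 knockout inguinal libraries, while Ogdh in brown tissue has 1 high library among the labelled knockouts.

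Markers of some other cell types differed between the inguinal groups. The counts below stand beside 15.3% higher and 13.3% lower of all genes tested. Of 14 skeletal muscle markers, 12 were lower and 0 higher in knockout inguinal tissue, and their sum was 46.9 to 53.7 CPM in knockout libraries, against 151 to 427 CPM in wild-type libraries. Of 9 brown adipocyte markers, 5 were higher and 0 lower, with sums of 3003 to 3797 CPM in knockout libraries, against 1512 to 2280 CPM in wild-type libraries. Of 5 proliferation markers, 4 were lower (169 to 193 CPM in knockout libraries, 217 to 324 CPM in wild-type libraries), and 2 of 7 B cell markers were lower (5.05 to 13.6 CPM in knockout libraries, 11.8 to 21.5 CPM in wild-type libraries). Of 7 general adipocyte markers, 1 was higher and 1 lower (24557 to 27514 CPM in knockout libraries, 29023 to 30695 CPM in wild-type libraries). The sum of 5 epithelium markers, none of which passed the filter on low counts in this comparison, was 0.104 to 0.134 CPM in knockout libraries, against 0.49 to 6.73 CPM in wild-type libraries. None of 6 T cell, 5 macrophage or 5 erythroid markers was called. No gene of these lists was at 0 in every library. Their part in the changes of the 30 genes was not tested.

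Promoter sequence is shown for 5 genes whose windows hold a searched motif, beginning with Ogdh, which had the largest inguinal change. Of the 30 genes, 27 had a promoter in the RefSeq table used, 37 windows in all of 300 bases each, and Idh3a, Me2 and Pdp1 had none. The 5 motifs were searched on both strands, and the matches marked here do not overlap. The E-box CACGTG was in 16.2% of the 37 windows (Ogdh, Pcx, Pdk2 and Pdp2) and in 7.15% of all 32851 windows. The cAMP response element TGACGTCA was in 10.8% (Mdh2 and Ogdh) and in 1.79% of all, and the NRF1 core GCGCATGCG in 5.41% (Ogdh) and in 1.75% of all. Ogdh alone has 6 windows, several of which share bases, so these percentages count some sites more than once. The NRF1 core of Ogdh is the same site in each window that holds it, and so is its cAMP response element. By gene, the E-box was in 4, the cAMP response element in 2 and the NRF1 core in 1 of the 27 genes. A share by gene over all genes was not computed. The CCAAT box was in 59.5% of the 37 windows and 37.4% of all, and the estrogen-related receptor motif TNAAGGTCA in 0 of 37 and in 1.28% of all. A match is a description of the letters only. The sequences below run 5′ to 3′ on the gene's strand in build GRCm38.p6. Capitals mark the E-box in Pcx, Pdk2 and Pdp2, the cAMP response element in Mdh2, and the E-box followed by the NRF1 core in Ogdh.
Ogdh, chr11:6292308-6292607, plus strand: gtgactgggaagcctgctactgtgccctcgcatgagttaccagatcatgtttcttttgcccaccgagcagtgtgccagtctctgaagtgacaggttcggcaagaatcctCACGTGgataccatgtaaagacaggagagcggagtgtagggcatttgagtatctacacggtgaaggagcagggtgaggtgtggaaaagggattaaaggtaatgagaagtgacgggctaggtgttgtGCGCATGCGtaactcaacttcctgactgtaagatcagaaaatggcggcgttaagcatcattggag
Mdh2, chr5:135778399-135778698, plus strand: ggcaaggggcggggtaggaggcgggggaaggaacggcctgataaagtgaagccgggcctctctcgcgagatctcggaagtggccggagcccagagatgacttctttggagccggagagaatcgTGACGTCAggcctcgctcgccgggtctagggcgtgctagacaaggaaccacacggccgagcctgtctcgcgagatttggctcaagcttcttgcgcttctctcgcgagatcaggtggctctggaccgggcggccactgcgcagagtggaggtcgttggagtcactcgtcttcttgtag
Pcx, chr19:4510222-4510521, plus strand: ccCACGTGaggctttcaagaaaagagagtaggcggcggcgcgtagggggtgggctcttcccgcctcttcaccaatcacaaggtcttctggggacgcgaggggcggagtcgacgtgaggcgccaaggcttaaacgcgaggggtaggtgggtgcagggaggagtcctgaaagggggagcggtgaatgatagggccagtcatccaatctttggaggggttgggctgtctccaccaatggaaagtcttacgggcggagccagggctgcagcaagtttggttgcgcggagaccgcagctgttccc
Pdk2, chr11:95041322-95041621, minus strand: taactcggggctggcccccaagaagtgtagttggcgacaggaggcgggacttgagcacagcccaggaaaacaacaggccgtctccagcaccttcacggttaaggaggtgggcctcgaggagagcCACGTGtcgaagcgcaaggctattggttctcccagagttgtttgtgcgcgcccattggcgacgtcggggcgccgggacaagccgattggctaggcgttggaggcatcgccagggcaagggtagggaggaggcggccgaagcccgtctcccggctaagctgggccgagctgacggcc
Pdp2, chr8:104591222-104591521, plus strand: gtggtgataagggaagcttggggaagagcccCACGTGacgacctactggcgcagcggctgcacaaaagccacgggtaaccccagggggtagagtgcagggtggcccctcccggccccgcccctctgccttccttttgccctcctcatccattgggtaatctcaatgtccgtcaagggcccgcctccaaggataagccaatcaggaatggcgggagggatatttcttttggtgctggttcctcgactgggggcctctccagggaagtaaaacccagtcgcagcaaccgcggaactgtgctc

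Among 33 other genes of the pathway, 16 were higher and 1 was lower in knockout inguinal tissue, beside 15.3% higher and 13.3% lower of all genes tested. Pdpr, the regulatory subunit of pyruvate dehydrogenase phosphatase, averaged 88.7 ± 12.3 CPM in knockout libraries and 41.1 ± 4.39 CPM in wild-type libraries (SD, n = 3 and 4, log2 change 1.12, SE 0.11). Got1, the cytosolic aspartate aminotransferase of the malate-aspartate shuttle, rose by 1.32 (SE 0.14). Acly, which splits exported citrate, rose by 0.97 (SE 0.14), Ldhb, a lactate dehydrogenase subunit, by 0.77 (SE 0.12), and Gpt2, the mitochondrial alanine aminotransferase, by 0.53 (SE 0.09). Pck1, which makes phosphoenolpyruvate from oxaloacetate, was the gene called lower (log2 change -0.58, SE 0.16), and it was named after its value was seen.

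In brown tissue at postnatal day 0.5, none of the 30 genes passed the test between labelled knockout and wild-type libraries. At an unadjusted edgeR p below 0.05 there were 4 of 30, beside 18.5% of all 15796 genes. Of all genes tested, 0.184% were called higher and 0.076% lower. The median log2 difference was -0.04 over the 30 genes and 0.01 over all genes. Summed over the 30 genes, levels were 22848, 21291, 19126 and 20404 CPM in labelled knockout libraries, against 21833, 21448, 21120 and 20950 CPM in wild-type libraries, and the groups overlapped. By gene, 0 of the 30 had all labelled knockout libraries above all wild-type libraries, beside 4.88% of all genes, and 2 had them all below, beside 4.86% of all genes.

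Those 2 genes were Sucla2 and Pdp1. Sucla2 had 1779, 1856, 1586 and 1756 CPM in labelled knockout brown libraries, against 1897, 1959, 2089 and 1974 CPM in wild-type libraries (log2 difference -0.19, SE 0.09, edgeR adjusted p = 0.305). Pdp1 had 11.7, 14.5, 12.2 and 14.2 CPM in labelled knockout libraries, against 14.8, 16.4, 15.1 and 15.6 CPM in wild-type libraries (log2 difference -0.24, SE 0.12, edgeR adjusted p = 0.309). In both, the gap between the groups was small beside the spread within them.

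The largest difference in brown tissue was in Pdp2. It had 34.8, 112, 58.3 and 134 CPM in labelled knockout libraries, against 38.5, 26.7, 41.6 and 32.4 CPM in wild-type libraries (log2 difference 1.28, SE 0.38, edgeR adjusted p = 0.143). Labelled knockout library 1 lay within the wild-type range and the other labelled knockout libraries above it. The other 3 genes with an unadjusted p below 0.05 were Mpc2, Pdk2 and Me3. Mpc2 had 221, 237, 198 and 243 CPM in labelled knockout libraries, against 239, 299, 287 and 316 CPM in wild-type libraries (log2 difference -0.35, edgeR adjusted p = 0.162). The level of Pdk2 was 340, 491, 473 and 469 CPM in labelled knockout libraries, against 354, 295, 346 and 343 CPM in wild-type libraries (log2 difference 0.40, edgeR adjusted p = 0.163). Again library 1 was inside the wild-type range. Me3 had 29.2, 42.2, 42.2 and 36.7 CPM in labelled knockout libraries, against 32.0, 29.7, 26.0 and 23.3 CPM in wild-type libraries (log2 difference 0.43, edgeR adjusted p = 0.173).

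Without labelled knockout library 1, 7 of the 30 genes passed, 3 higher and 4 lower, beside 18.1% of the genes tested in that fit. Higher were Pdp2 (log2 change 1.54, SE 0.28), Me3 (0.54, SE 0.12) and Pdk2 (0.51, SE 0.10). Lower were Idh1 (-0.60, SE 0.11), Pdhx (-0.46, SE 0.10), Mdh1 (-0.42, SE 0.11) and Ogdh (-0.41, SE 0.11). With limma-voom and library quality weights on all 8 libraries, 6 passed, beside 19.8% of all genes. They were the same genes other than Ogdh, in the same directions. The levels of Ogdh show the pattern, with 1578 CPM in library 1, 875, 765 and 893 CPM in the other labelled knockout libraries, and 1066, 1003, 1184 and 1213 CPM in wild-type libraries. Idh1 had 361 CPM in library 1, 219, 230 and 192 CPM in the other labelled knockout libraries, and 282, 318, 357 and 335 CPM in wild-type libraries. For Ogdh and Idh1 alike, library 1 was above and the other labelled knockout libraries below every wild-type library. Library 1 had a muscle marker sum of 4238 CPM, against 2530 to 3234 CPM in the other labelled knockout libraries and 2481 to 4252 CPM in wild-type libraries. Labelled knockout library 4 had an epithelium marker sum of 68.8 CPM, against 0.541 to 1.10 CPM in the other labelled knockout libraries and 0.770 to 1.29 CPM in wild-type libraries. The part of these markers in the results was not tested.

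**Figure D3:**
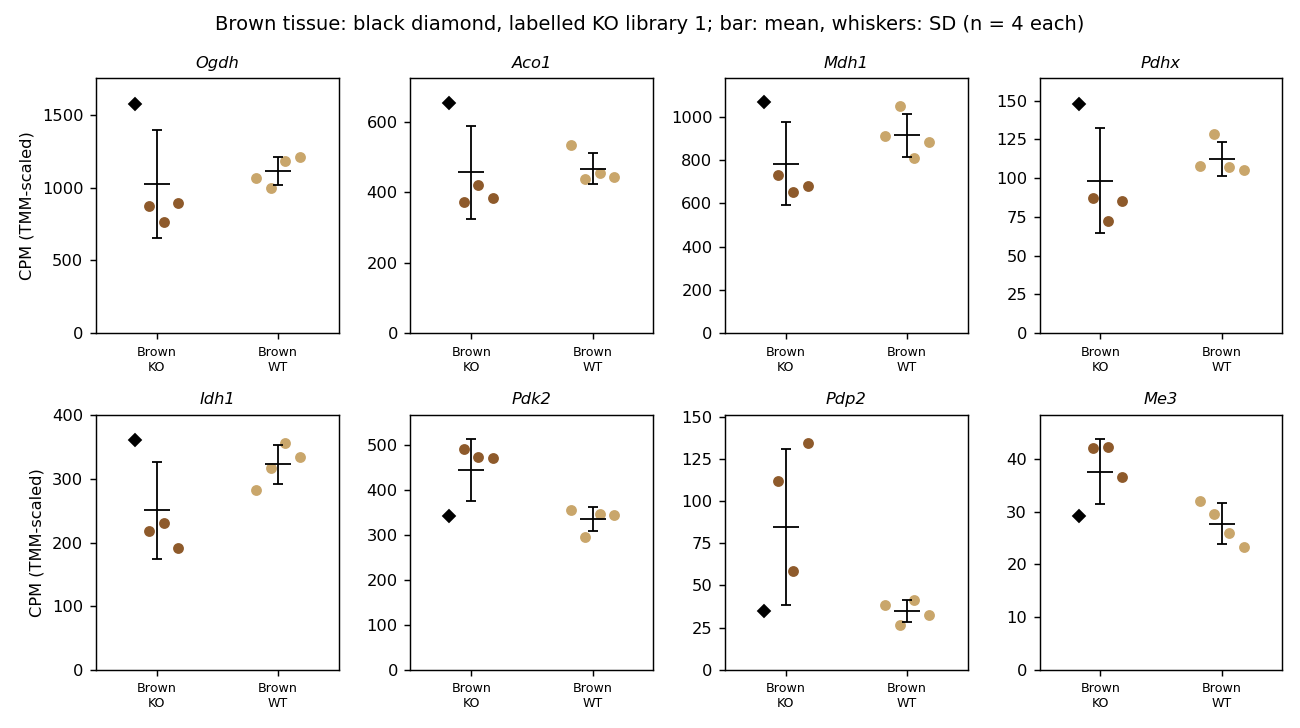
CPM of 8 genes in brown labelled knockout and wild-type libraries, with the mean as a bar and the SD as whiskers (n = 4 each, axes from 0). Labelled knockout library 1, the black diamond, lies apart from the other labelled knockout libraries, as at 340 CPM of Pdk2 against 469 to 491 CPM.

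None of the 33 other pathway genes passed in brown tissue. The smallest unadjusted edgeR p belonged to Glul, glutamine synthetase (log2 difference 1.46, edgeR adjusted p = 0.132), Pck2, the mitochondrial phosphoenolpyruvate carboxykinase (0.62, edgeR adjusted p = 0.138), and Lipt1, a lipoyltransferase for the dehydrogenase complexes (-0.66, edgeR adjusted p = 0.140). At an unadjusted edgeR p below 0.05 there were 3 of the 33, beside 18.5% of all genes tested, so their share was below that of all genes.

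Whether the knockout effect differed between the depots was tested in a fit of all 15 libraries, in which depot and age change together. Il33 itself differed in this test, with an inguinal minus brown difference of -2.65 (SE 0.66, edgeR adjusted p = 0.0218). Its own change was thus unequal between the depots, and the part of this in the results below was not tested. For 12 of the 30 genes the effect was higher in inguinal than in brown tissue and for 0 it was lower, beside 4.8% higher and 4.2% lower of 16858 genes. The 12 were 3 of the pyruvate dehydrogenase complex (Pdha1, Dlat and Pdhx), citrate synthase Cs, 5 of the oxidative decarboxylations (Idh3a, Idh3g, Idh1, Ogdh and Dlst) and the 3 succinyl-CoA synthetase genes. Sucla2 had log2 values of 0.76 in inguinal and -0.19 in brown tissue, and the difference was 0.93 (SE 0.13, edgeR adjusted p = 0.00104). Cs had 0.72 in inguinal and -0.17 in brown tissue, with a difference of 0.87 (SE 0.16, edgeR adjusted p = 0.0047). For Ogdh the difference was 1.22 (SE 0.30, edgeR adjusted p = 0.0222). The calls of Cs, Idh3a, Sucla2 and Suclg1 were made under all 22 alternatives and those of the other 8 were lost under at least 1. The count fell to 4 without inguinal knockout library 2 and to 4 without inguinal knockout library 3. It was 7 without inguinal wild-type library 1 or 3, 6 without inguinal wild-type library 2 or 4, 7 without brown labelled knockout library 3 and 6 without brown labelled knockout library 4. Without brown labelled knockout library 1, the library that stood apart, it was 15. None of the kinases, phosphatases, carrier subunits or malic enzymes passed this test.

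Wild-type inguinal tissue at day 24 was compared with wild-type brown tissue at day 0.5 to place these levels, and tissue and age cannot be told apart in it. Of the 30 genes, 10 were higher and 15 lower in inguinal tissue, beside 30.7% higher and 30.7% lower of 15979 genes. All 3 genes of pyruvate entry and carboxylation were higher. Pcx had 2011, 1737, 1788 and 1540 CPM in wild-type inguinal libraries, against 693, 685, 457 and 524 CPM in wild-type brown libraries (log2 change 1.58, SE 0.14, edgeR adjusted p = 2.02e-06). Mpc1 had 234, 246, 221 and 228 CPM in wild-type inguinal libraries, against 89.0, 110, 103 and 110 CPM in wild-type brown libraries (log2 change 1.17, SE 0.08, edgeR adjusted p = 2.47e-07). Neither gene overlapped between tissues. Mpc2 was higher by 0.37 (SE 0.09). Cell type markers differed between these tissues too. Of 14 skeletal muscle markers, 12 were lower and 2 higher in inguinal tissue. Their sum was 151 to 427 CPM in wild-type inguinal libraries, against 2481 to 4252 CPM in wild-type brown libraries. Of 9 brown adipocyte markers, 5 were lower and 0 higher, and all 7 B cell markers were higher. The part of these markers in the differences of the 30 genes was not tested.

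Most genes of the mitochondrial enzymes of the cycle were lower in inguinal tissue. Sucla2 had 687, 701, 686 and 587 CPM in wild-type inguinal libraries, against 1897, 1959, 2089 and 1974 CPM in wild-type brown libraries (log2 change -1.57, SE 0.09, edgeR adjusted p = 3.61e-08). Cs had 1483, 1415, 1414 and 1359 CPM in wild-type inguinal libraries, against 3465, 3151, 3798 and 3669 CPM in wild-type brown libraries (log2 change -1.31, SE 0.09, edgeR adjusted p = 1.8e-07). Between tissues, no library of these genes overlapped. Log2 changes were -1.33 for Suclg1, -1.22 for Idh3a, -1.12 for Idh3b, -1.06 for Idh3g, -0.97 for Idh2, -0.96 for Fh1, -0.88 for Dlst, -0.72 for Mdh2 and -0.34 for Ogdh. The genes of cytosolic enzymes were higher, with log2 changes of 0.68 for Idh1, 0.32 for Mdh1 and 0.38 for Aco1. Some genes of mitochondrial proteins were higher too, such as Pcx (1.58) and Mpc1 (1.17). Among kinases, Pdk1 (-0.82) and Pdk2 (-0.91) were lower and Pdk3 (0.37) was higher in inguinal tissue. Pdhb (0.46), Pdhx (0.32) and Me2 (0.67) were higher, and Me3 (-1.25) and Pdp1 (-0.22) were lower. Pdha1 had a log2 difference of 0.00 (SE 0.08, edgeR adjusted p = 0.973), Dlat one of -0.04, Suclg2 one of -0.14, Pdp2 one of -0.13 and Glud1 one of 0.09, and none of these 5 passed. The Pdk3 call was lost without inguinal wild-type library 3, without brown wild-type library 3 or without brown wild-type library 4, and the Pdp1 call when any 1 of the 8 libraries was left out. In a fit of all 4 groups the calls of Mdh1, Ogdh, Pdhx, Pdk3 and Pdp1 were lost.

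**Figure D4:**
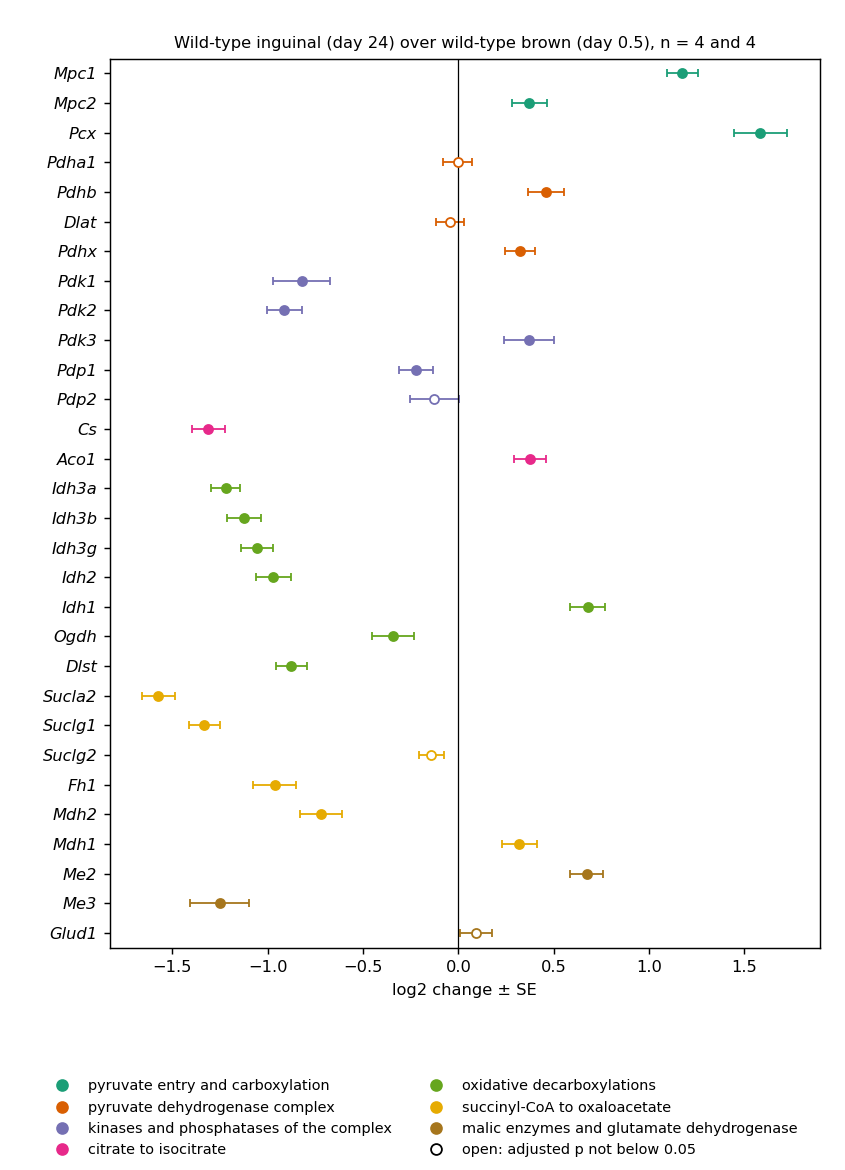
Log2 change with its SE for each of the 30 genes in wild-type tissue, inguinal at day 24 over brown at day 0.5 (n = 4 and 4), by role. Filled points passed the test; Pcx is highest at 1.58 and Sucla2 lowest at -1.57.

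Per kilobase of exon, Pcx averaged 372 ± 40.7 CPM per kb in wild-type inguinal tissue and 124 ± 24.8 CPM per kb in wild-type brown tissue (SD, n = 4 each). Cs averaged 245 ± 8.75 CPM per kb in wild-type inguinal tissue and 609 ± 48.8 CPM per kb in wild-type brown tissue. The level of Pcx was thus above that of Cs in inguinal tissue and below it in brown tissue. Sucla2 was above Suclg2 on this scale in both, at 167 ± 13.2 and 26.3 ± 1.54 CPM per kb in wild-type inguinal tissue and at 496 ± 20.1 and 29.1 ± 0.963 CPM per kb in wild-type brown tissue. Mdh1 had the highest level per kilobase of the 30 in wild-type inguinal tissue, at 444 ± 11.6 CPM per kb.

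Partners were also compared as a ratio within each library, which does not depend on library scaling. The 13 pairs in 2 depots gave 26 exact permutation tests, 2-sided, for which the smallest possible p is 0.0286. It was reached by 7, with a Benjamini-Hochberg adjusted value of 0.106, so no ratio passed. In inguinal tissue the count ratio of Suclg2 to Sucla2 was 0.142, 0.143 and 0.154 in knockout libraries, against 0.186, 0.180, 0.176 and 0.191 in wild-type libraries. Every knockout library was below every wild-type library (log2 difference -0.32, exact p = 0.0286). The other inguinal ratios at that exact p were Pdk3 to Pdk2 (log2 difference -1.06), Pdp1 to Pdp2 (-0.75), Me3 to Me2 (1.01) and Mpc1 to Mpc2 (0.28). In brown tissue they were Pdp1 to Pdp2 (-1.36) and Me3 to Me2 (0.78). For the ratios of Pdp1 to Pdp2 and Me3 to Me2, labelled knockout library 1 also lay outside the wild-type range, in the direction of the other labelled knockout libraries.

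**Figure D5:**
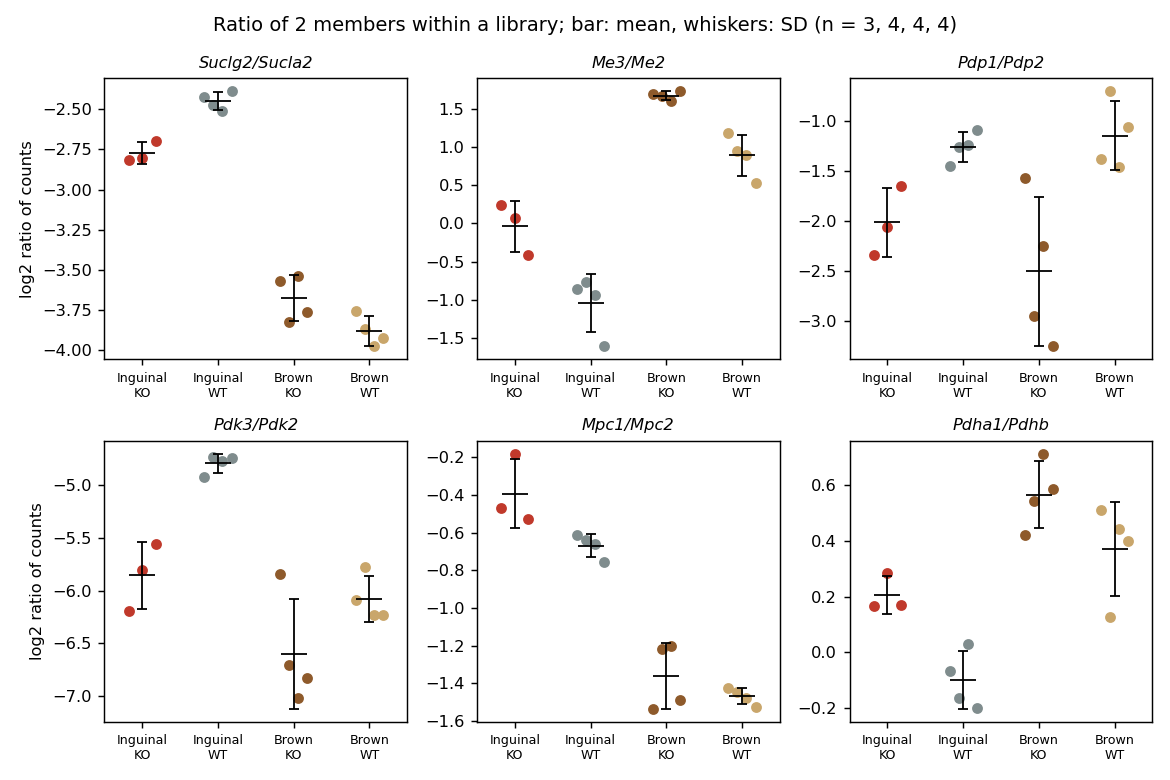
Log2 ratio of counts of 2 genes within each library for 6 pairs, with the mean as a bar and the SD as whiskers (n = 3, 4, 4 and 4). The ratio of Suclg2 to Sucla2 averages -2.77 in knockout and -2.45 in wild-type inguinal libraries; axes do not start at 0.

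Some counts could include reads of similar genes. With matches of 100 bases or longer at 95% identity or above, A230065N10Rik had counts equal to 2.01% of those of Me3, 4930506C21Rik to 1.46% of those of Mpc1 and Map3k15 to 0.37% of those of Pdha1. Mpc1-ps had counts equal to 0.0122% of those of Mpc1, and Gm15163 to 0.00943% of those of Suclg2. Other similar copies had no identifier among the deposited counts, so their share is unknown. These were Glud-ps and Gm43444 for Glud1, Gm8219 for Mpc1 and Gm6123 for Pdhb.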

How the data were processed

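The authors deposited a table of unnormalized whole-number counts for 15 libraries, and 0 of its sample columns were left unused. Libraries were made with a stranded mRNA kit, per the labels' protocols. Per the submitters' processing notes, the genome build was mm9 and the tools were edgeR, featureCounts, Subread and TopHat2 2.1.0. Their roles, the gene models and whether counting used strand were not given in the sources used here, so counts of overlapping or antisense genes are uncertain. Of 37991 Ensembl identifiers, 32919 were matched to a symbol.

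Counts were tested in R 4.3.3 with edgeR 4.0.16 (filterByExpr with a minimum count of 10, TMM scaling, robust quasi-likelihood F-test), each comparison on its own groups (the difference between depots on all 4) and adjusted by Benjamini-Hochberg over all genes tested. The SE was taken from the F statistic, as the size of the log2 change over the root of F. Alternatives were DESeq2 1.42.0 size factors, its Wald test, limma-voom 3.58.1, no filter, a filter at 5 CPM, non-robust dispersions, a replicate block, all 4 groups in 1 fit and each library left out. Ratios used counts plus 0.5 (or 5). The fits were tested on simulated data. Libraries of a group differed by at least 14.7 in chi-square per degree of freedom, so none was counted as a repeat.

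All 30 genes were described; of the other pathway genes, the 6 with the smallest p in inguinal and the 3 in brown tissue were to be named, of which 1 is not reported here. The genes and lists were chosen with earlier results of these data known. Levels per kilobase used the union exon length of GENCODE M21, not the authors' annotation. Promoters came from RefSeq (GRCm38.p6, not the authors' build), and similar genes were found with blastn 2.17.0.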

Additional observations from a re-analysis of the deposited data

Results flagged for a closer look

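In 7 of 90 groups of 4 libraries, the highest or lowest library lay far from the other three relative to the range of the group; chance alone gives such a gap in about 1 in 20 groups. In brown labelled knockout library 1, Ogdh was 1580 CPM and the nearest library 893 CPM, Aco1 was 654 CPM and the nearest 420 CPM, and Pdk2 was 340 CPM and the nearest 469 CPM. In brown wild-type library 2, Pdhx was 128 CPM and the nearest library 108 CPM, and Suclg1 was 1130 CPM and the nearest 976 CPM. In inguinal wild-type library 4, Ogdh was 701 CPM and the nearest library 924 CPM, and Sucla2 was 587 CPM and the nearest 686 CPM.

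The knockout effect differed between inguinal and brown tissue, tested as an interaction with edgeR, for 12 of the 30 genes, beside 4.8% of all genes higher and 4.2% lower. Of these calls 4 were made under all 22 alternatives (Cs, Idh3a, Sucla2 and Suclg1). The count was 4 without inguinal knockout library 2 or without inguinal knockout library 3, and 6 with the replicate block. The inguinal minus brown difference in log2 change was 1.22 for Ogdh, 0.93 for Sucla2, 0.87 for Cs, 0.83 for Idh3a, 0.82 for Pdhx, 0.82 for Idh1, 0.75 for Suclg1, 0.64 for Dlst, 0.62 for Dlat, 0.59 for Pdha1, 0.57 for Idh3g and 0.40 for Suclg2. For Il33 itself it was -2.65 (SE 0.66, edgeR adjusted p = 0.0218), so the change of Il33 was also unequal between the depots.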

How the results depend on the processing

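Of the 25 genes called in inguinal tissue, 18 were called under all 15 alternatives, and the count ran from 18 (all 4 groups in 1 fit) to 25, with leave-one-out counts of 23 to 25. In brown tissue the count was 0, but 1 with the DESeq2 Wald test (Pdp2), 1 with all 4 groups in 1 fit (Pdp2), 6 with limma-voom, and 0 to 7 when a library was left out, the 7 without labelled knockout library 1. Over all genes, 41 were called in brown tissue, and 2905 without that library. For the difference between depots, the count was 12, 15 with the DESeq2 Wald test, 17 (16 higher and 1 lower) with limma-voom, and 4 to 15 when a library was left out. In the wild-type comparison, 20 of 25 calls were made under all 16 alternatives. No call changed direction. The ratio tests are too small for their calls to show stability. Whether replicate numbers pair the libraries was not settled. In inguinal tissue, correlations of deviations ran from -0.10 to 0.05 between same-numbered libraries and from -0.10 to 0.14 between differently numbered ones. In brown tissue they ran from -0.04 to 0.17 between same-numbered and from -0.15 to 0.08 between differently numbered libraries. The highest brown values, 0.17, 0.10 and 0.09, were those of the same-numbered libraries 3, 4 and 1. With the replicate block, 25 genes passed in inguinal tissue, 0 in brown tissue, 23 between wild-type tissues and 6 for the difference between depots. The cause of these shifts was not tested. With 3 and 4 or 4 and 4 libraries, small changes may be missed.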
